A study of Mus musculus with 4 samples.

Results

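The mouse Hist1 cluster on chromosome 13 was examined as a target of HIV vector integration directed by TAF3 fusions. The members were all distinct integration junctions in 2 stretches of the mm9 genome, chr13:21700001-22150000 (450 kb) and chr13:23500001-23900000 (400 kb). Membership was set by these coordinates, which were drawn with earlier results of these data known, and every junction inside them was kept. The 4 libraries held 150 such junctions of 122029 in all, 60 in the first stretch and 90 in the second. The stretch between them, chr13:22150001-23500000 (1350 kb), held 30 junctions and served as the comparison.

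The junctions came from HIT-seq, in which a chromatin protein carries the part of LEDGF that binds HIV integrase, so that the vector is directed to where the fusion sits. All 4 groups were mouse embryonic fibroblasts of strain C57BL/6 with the genotype Psip1 (-/-), so they lacked LEDGF itself, the host factor that normally guides HIV integrase. They were transfected with a plasmid for full-length TAF3 of wild-type sequence (Full WT), full-length TAF3 with the M880A substitution (Full M880A), the PHD domain alone (PHD WT), or the PHD domain with M880A (PHD M880A). The cells were of a single knockout line, were sorted for GFP after transfection, and expressed each fusion from the plasmid. Each group had 1 library, and no library without a fusion was analysed here. No difference below has a replicate check: every comparison sets libraries, not conditions, against each other. All intervals are 95% intervals for counting error. They are too narrow to the extent that junctions crowd together, and the files hold no expression values by which the labelled cell type could be checked.

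Replication-dependent histone genes encode the H1 linker histones and the core histones H2A, H2B, H3 and H4 that package newly copied DNA. They lie in clusters, are transcribed mainly in S phase, and their short messages end in a stem-loop in place of a poly(A) tail. TAF3 is a subunit of TFIID, the factor that recognises core promoters, and its PHD finger binds histone H3 trimethylated at lysine 4, a mark of active promoters. M880A lies in this finger and is known to weaken that binding.

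The order of genes in the cluster was taken from RefSeq on GRCm38.p6, which is another build than the files use, so only names and order are given and no junction was assigned to a gene. Chromosome 13 has 56 histone genes there, in 2 blocks. The first block ran from H2bc13 to H2bc11 and held 24 histone genes, among them 8 of H2A, 8 of H2B, 5 of H4, 2 of H3 and 1 of H1, interspersed with 31 tRNA genes. The second ran from H4c8 to H2ac1 and held 32 histone genes, 7 each of H2A, H2B and H3, 6 of H4 and 5 of H1, and no tRNA gene. The 147 genes between the blocks held no histone gene. Of these, 75 were Vmn1r genes or pseudogenes, which encode vomeronasal receptors, and 46 were tRNA genes. Many histone genes are near-identical copies, and how the authors placed reads that match several copies is not given in the sources used here.

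Histone promoters of this cluster are shown because TFIID, the complex to which TAF3 belongs, contains the TATA-binding protein. Promoter entries were found for 51 of the 56 genes (52 entries, RefSeq, GRCm38.p6). In the 250 bases before the start, 50% of the 52 held TATAAA on either strand, against 12.4% of all 32851 promoters, and 84.6% held CCAAT, against 33.8%. The letters searched do not overlap. The last 100 bases before the start are printed for 3 H1 linker histone genes, chosen as examples from one family, with matches of both motifs on the printed strand in capitals. A match on the other strand reads attgg or tttata here and is left in lower case, as attgg in H1f5. H1f5 and H1f4 lie on the minus strand and H1f3 on the plus strand, and each sequence reads 5′ to 3′ along its gene.

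H1f5: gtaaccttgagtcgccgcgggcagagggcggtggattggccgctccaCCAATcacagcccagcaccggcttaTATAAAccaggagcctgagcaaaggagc

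H1f3: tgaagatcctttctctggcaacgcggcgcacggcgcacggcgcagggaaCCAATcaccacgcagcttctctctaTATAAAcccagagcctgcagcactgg

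H1f4: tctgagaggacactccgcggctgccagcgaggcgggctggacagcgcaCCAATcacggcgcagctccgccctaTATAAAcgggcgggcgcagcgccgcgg

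TATAAA began 28, 26 and 27 bases before the start in H1f5, H1f3 and H1f4, and CCAAT 53, 51 and 52 bases before it. A match is a description of these letters, and the junction coordinates could not be set against these promoters.

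The lists held 22486 junctions in Full WT, 39292 in Full M880A, 25363 in PHD WT and 34888 in PHD M880A. The 3 libraries other than Full WT shared a flow cell, so flow cell and fusion cannot be told apart in comparisons with Full WT. Of the Hist1 junctions, 23 were from Full WT, 56 from Full M880A, 41 from PHD WT and 30 from PHD M880A. Merging same-strand positions within 10 bp, which may stem from the same integration, left 53 in Full M880A and changed none of the other 3 counts. The reads per Hist1 junction ran from 2 to 269 in Full WT (median 30), from 2 to 217 in Full M880A (13), from 2 to 391 in PHD WT (42) and from 2 to 294 in PHD M880A (22). The medians of the whole lists were 41, 24, 29 and 23.

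**Figure D1:**
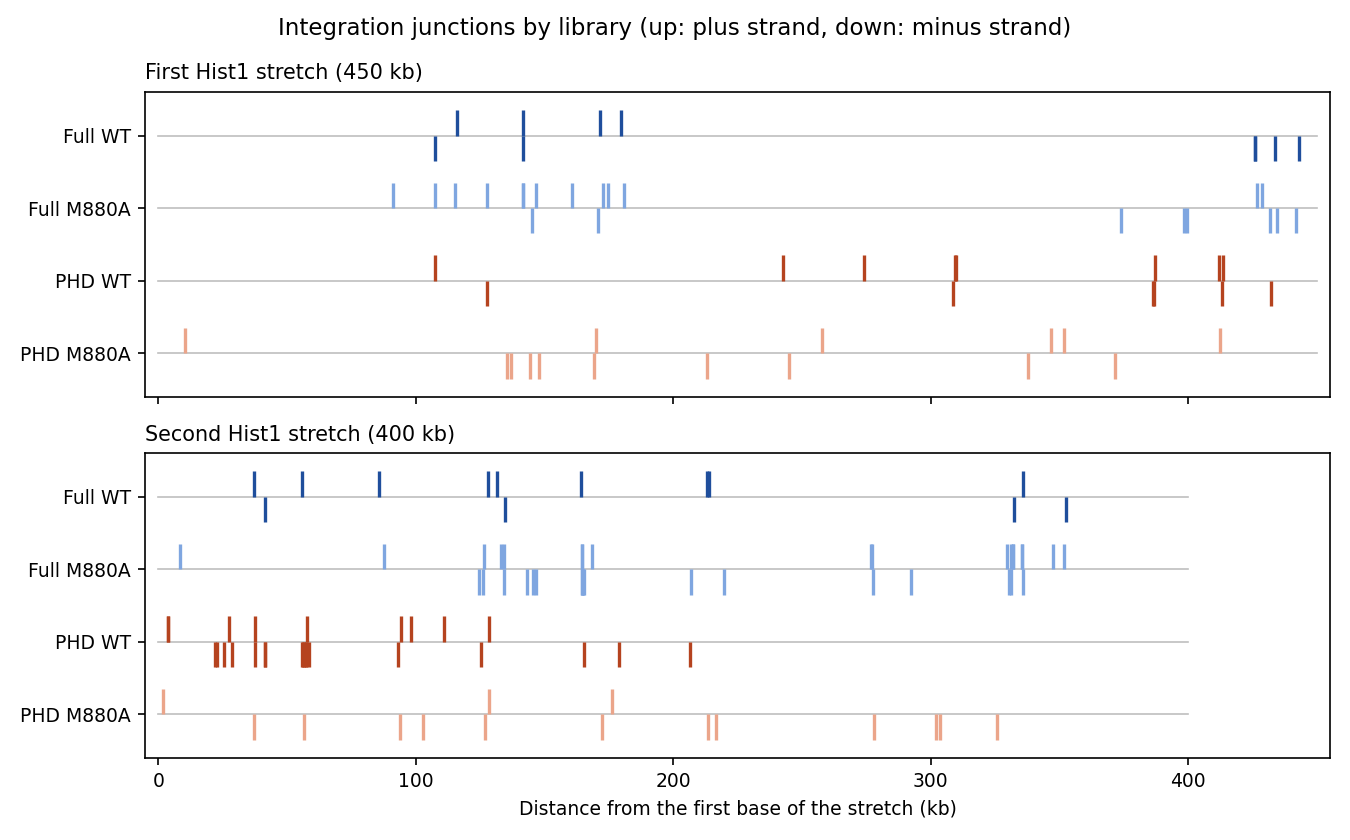
Each tick is 1 integration junction at its distance in kb from the first base of the stretch, above the line for the plus strand and below it for the minus strand, with 1 row per library. PHD WT ticks crowd at the start of the second stretch, where 26 of its 27 junctions lie in the first 200 kb, while the Full M880A ticks there divide into 18 and 17.

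The first comparison asked whether the Hist1 stretches were hit more often than the DNA between them, within each library. They were denser in all 4 libraries. Full WT had 27.1 junctions per Mb in the Hist1 stretches and 2.96 between them, a ratio of 9.13 (3.12 to 36.3). Full M880A had 65.9 and 8.89 per Mb, a ratio of 7.41 (3.93 to 15.2). PHD WT had 48.2 and 2.96 per Mb, a ratio of 16.3 (5.90 to 62.6), and PHD M880A had 35.3 and 7.41 per Mb, a ratio of 4.76 (2.27 to 10.9). All 4 intervals lay above 1, so the Hist1 density exceeded that between by more than counting error in each library, the PHD M880A library included. The counts between were small, 4, 12, 4 and 10 junctions in the same order.

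The difference had 2 sides. Over the whole span of 2570 Mb, the density was 8.75 per Mb in Full WT, 15.3 in Full M880A, 9.87 in PHD WT and 13.6 in PHD M880A. The Hist1 stretches stood at 3.09, 4.31, 4.89 and 2.60 times these values. The stretch between stood at 0.339, 0.581, 0.300 and 0.546 times them, and the rest of chromosome 13 at 0.774, 0.775, 0.762 and 0.957 times. When density was taken only over 10 kb windows with a junction of any library, 48 of 85 in the Hist1 stretches and 25 of 135 between, the ratios were 2.99 (1.02 to 11.9) in Full WT, 2.43 (1.29 to 4.98) in Full M880A, 5.34 (1.93 to 20.5) in PHD WT and 1.56 (0.743 to 3.58) in PHD M880A. This choice leaves out more empty windows between than in the Hist1 stretches and so lowers the ratios by construction, and nothing is read from their intervals. How much of the stretch between can be mapped by reads was not tested.

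**Figure D2:**
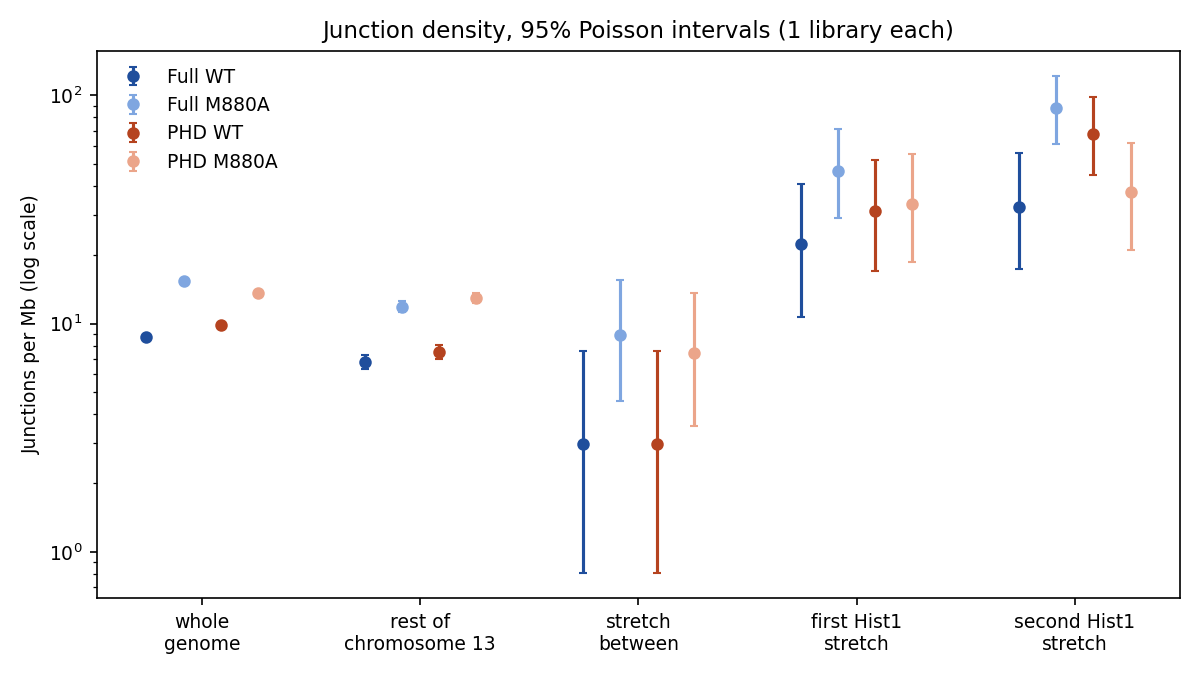
Points are junctions per Mb on a log axis in the whole genome, the rest of chromosome 13, the stretch between and each Hist1 stretch, 1 point per library with its 95% Poisson interval. In every library the points of the Hist1 stretches, from 22.2 to 87.5 per Mb, lie above those of the stretch between, from 2.96 to 8.89 per Mb.

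The densities of the first and second stretches were compared within each library. In the first, the density was 22.2 per Mb in Full WT, 46.7 in Full M880A, 31.1 in PHD WT and 33.3 in PHD M880A. In the second it was 32.5, 87.5, 67.5 and 37.5 per Mb. The second exceeded the first by more than counting error in 2 libraries, by 2.17 times (1.10 to 4.48) in PHD WT and 1.88 times (1.06 to 3.39) in Full M880A. The ratios of 1.46 (0.592 to 3.73) in Full WT and 1.13 (0.512 to 2.47) in PHD M880A did not. The second-to-first ratio was not shown to differ between libraries: its ratio was 1.91 (0.661 to 5.64) for PHD WT over PHD M880A and 0.782 (0.262 to 2.38) for Full WT over Full M880A.

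The PHD libraries of wild-type sequence and with M880A were compared next. PHD WT placed 16.2 of every 10000 junctions in the Hist1 stretches (11.6 to 21.9) and PHD M880A placed 8.60 (5.80 to 12.3). The ratio was 1.88 (1.15 to 3.12). It was 2.48 (1.27 to 5.01) in the second stretch and 1.28 (0.574 to 2.85) in the first. Among junctions with at least 10 reads it was 1.79 (0.967 to 3.34), an interval that holds 1. Between the stretches the direction was the other way, with 1.58 per 10000 in PHD WT and 2.87 in PHD M880A, a ratio of 0.550 (0.126 to 1.91). Set against the stretch between, the Hist1 ratio of PHD WT was 3.37 (0.867 to 16.2) times that of PHD M880A, which at these counts is not distinguishable from 1, and 4.37 (1.04 to 22.5) times with the second stretch alone.

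For full-length TAF3, no lower share was detected in the library with M880A. Full WT lay on a flow cell of its own, so flow cell and M880A cannot be told apart here. Full WT placed 10.2 of every 10000 junctions there (6.49 to 15.3) and Full M880A 14.3 (10.8 to 18.5). The ratio of 0.718 (0.421 to 1.19) holds 1, and so did those of the first stretch, 0.832 (0.350 to 1.85), and of the second, 0.649 (0.315 to 1.26). Over both stretches the interval allows a WT share from 0.421 to 1.19 times that of M880A. A lower, an equal and a somewhat higher WT share thus all remain within counting error. In the first stretch alone the interval reaches 1.85, so a loss with M880A is not excluded.

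The fusions were also compared by length. With the wild-type sequence, the Full share was 0.633 (0.362 to 1.08) times the PHD share, 0.806 (0.320 to 1.95) in the first stretch and 0.543 (0.257 to 1.09) in the second. With M880A, the Full share was 1.66 (1.05 to 2.68) times the PHD share, 1.24 (0.611 to 2.59) in the first stretch and 2.07 (1.10 to 4.08) in the second. The interval over both stretches held 1 under 2 other settings, with a ratio of 1.57 (0.987 to 2.55) after merging positions within 10 bp and 1.42 (0.796 to 2.60) among junctions with at least 10 reads. The pairs share libraries, so the 4 ratios are not independent of one another.

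**Figure D3:**
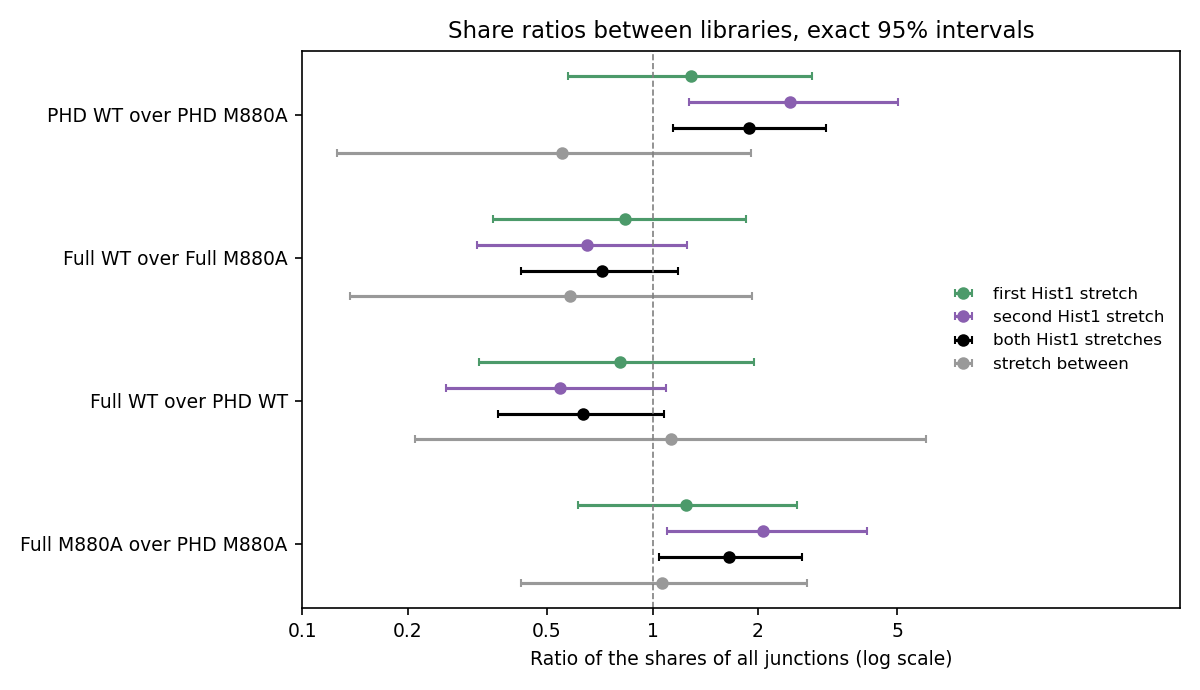
Points are ratios of the shares of all junctions that fell in each stretch, on a log axis, with exact 95% intervals for counting error, for the 4 pairs of libraries. The ratio for both Hist1 stretches lies above 1 for PHD WT over PHD M880A (1.88) and Full M880A over PHD M880A (1.66), and the intervals of the other pairs cross the dashed line at 1.

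In 10 kb windows, Full WT had a junction in 17 of the 85 Hist1 windows (20.0%, against 5.73% of all 257059 windows of the genome). Full M880A had one in 27 (31.8%, against 11.8%), PHD WT in 19 (22.4%, against 4.38%) and PHD M880A in 23 (27.1%, against 11.9%). A junction of any library lay in 48 windows (56.5%, against 26.1%). Between the stretches, 4, 12, 4 and 10 of 135 windows were hit in the same order. Of the 48 Hist1 windows, 20 held junctions of 1 library only, 19 of 2, 8 of 3 and 1 of all 4. Among the 67034 windows of the genome with a junction, the counts were 53100, 9468, 3031 and 1435 in the same order. Denser regions share more windows, so these counts are a description only. The 41 PHD WT junctions lay in 19 windows and the 56 Full M880A junctions in 27, with at most 7 and 8 in a window. The 30 PHD M880A junctions lay in 23 and the 23 Full WT junctions in 17, with at most 2 in any window. Over the genome, PHD WT had 25363 junctions in 11267 windows, Full M880A 39292 in 30294, PHD M880A 34888 in 30567 and Full WT 22486 in 14741.

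Windows occupied by one library were compared with those of another. Of the 17 windows with a Full WT junction, 14 (82.4%) also held a Full M880A junction, and these were 51.9% of the 27 Full M880A windows. Over the genome the same shares were 33.5% and 16.3%. Full WT and PHD WT had 7 windows in common, 41.2% of the Full WT and 36.8% of the PHD WT windows, with genome values of 30.6% and 40.1%. PHD WT and PHD M880A had 8 in common, 42.1% and 34.8% of their windows, with genome values of 29.6% and 10.9%. Denser regions share more windows, so the genome values are given as a description only.

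The 10 windows with the most junctions were chosen by the total over the 4 libraries, with ties taken in order of position. The last of them, chr13:22110001-22120000, shared its total of 4 with other Hist1 windows that are not listed. The fullest was chr13:23830001-23840000, with 8 Full M880A and 2 Full WT junctions and none from either PHD library. Next came chr13:23550001-23560000, with 7 PHD WT, 1 Full WT, 1 PHD M880A and no Full M880A junction. In chr13:23660001-23670000 there were 7 Full M880A, 1 Full WT and 1 PHD WT junction, with PHD M880A at 0. These 3 windows thus differed in which library filled them, those at 23830001 and 23660001 mostly by Full M880A and that at 23550001 mostly by PHD WT.

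In the first stretch, chr13:21840001-21850000 held 4 Full M880A, 2 Full WT and 2 PHD M880A junctions, and chr13:21870001-21880000 held 3 Full M880A and 2 Full WT. PHD WT had no junction in either. In the second stretch, chr13:23620001-23630000 was the only Hist1 window hit in all 4 libraries, with 3 Full M880A, 2 PHD WT, 2 PHD M880A and 1 Full WT junctions. The window chr13:23520001-23530000 held 5 PHD WT junctions and none of the other libraries. The remaining 3 were chr13:23630001-23640000 (3 Full M880A, 2 Full WT), chr13:23710001-23720000 (2 Full WT, 2 PHD M880A, 1 Full M880A) and chr13:22110001-22120000 (3 PHD WT, 1 PHD M880A). Between the stretches, the fullest window held 3 junctions, at chr13:23200001-23210000. The next, chr13:22150001-22160000 and chr13:22720001-22730000, held 2 each, as did chr13:23390001-23400000.

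Windows with at least 5 junctions over a pair were called when the shares, with 0.5 added to each count, differed at least 2-fold. Few Hist1 windows held enough junctions. In PHD WT over PHD M880A, both windows tested were called above, against 89.4% of 1726 windows over the genome, and none below, against 1.04%. In Full WT over Full M880A, none of 5 was called above (genome 48.1%) and 1 below (genome 7.29%), at chr13:23660001-23670000. In Full WT over PHD WT, none of 2 was above (genome 8.54%) and both were below (genome 32.6%). In Full M880A over PHD M880A, 2 of 4 were above (genome 60.1%) and none below (genome 4.98%). Both windows of PHD WT over PHD M880A went the way of most tested windows of the genome. With 5 or fewer Hist1 windows tested per pair, no count here can be set against its background. The called windows reached 5 junctions mostly through the library in which they were high, with 5 PHD WT against 0 PHD M880A, 7 against 1, and 7 and 8 Full M880A against 0 PHD M880A, so these counts are given as a description and no interval is read from them.

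The distribution along the cluster was read in blocks of 50 kb. In the first stretch, the junctions of the Full libraries lay mostly in 2 separate parts. Full WT had 6 from 21800001 to 21900000 and 4 from 22100001 to 22150000, and none elsewhere. Full M880A had 12 in the same 100 kb, 8 in the last 100 kb and 1 elsewhere. Neither Full library had a junction from 21900001 to 22050000, where PHD WT had 5 and PHD M880A had 5. In the second stretch, PHD WT had 11 and 10 junctions in the opening 2 blocks, from 23500001 to 23600000, and Full M880A had 1 in each, although its list was the longer. Beyond 23600000, Full M880A had 33 junctions and PHD WT had 6. PHD WT had none after position 23750000, where Full M880A had 15, Full WT 3 and PHD M880A 4. These divisions were chosen after the values were seen, and no test was made of them.

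**Figure D4:**
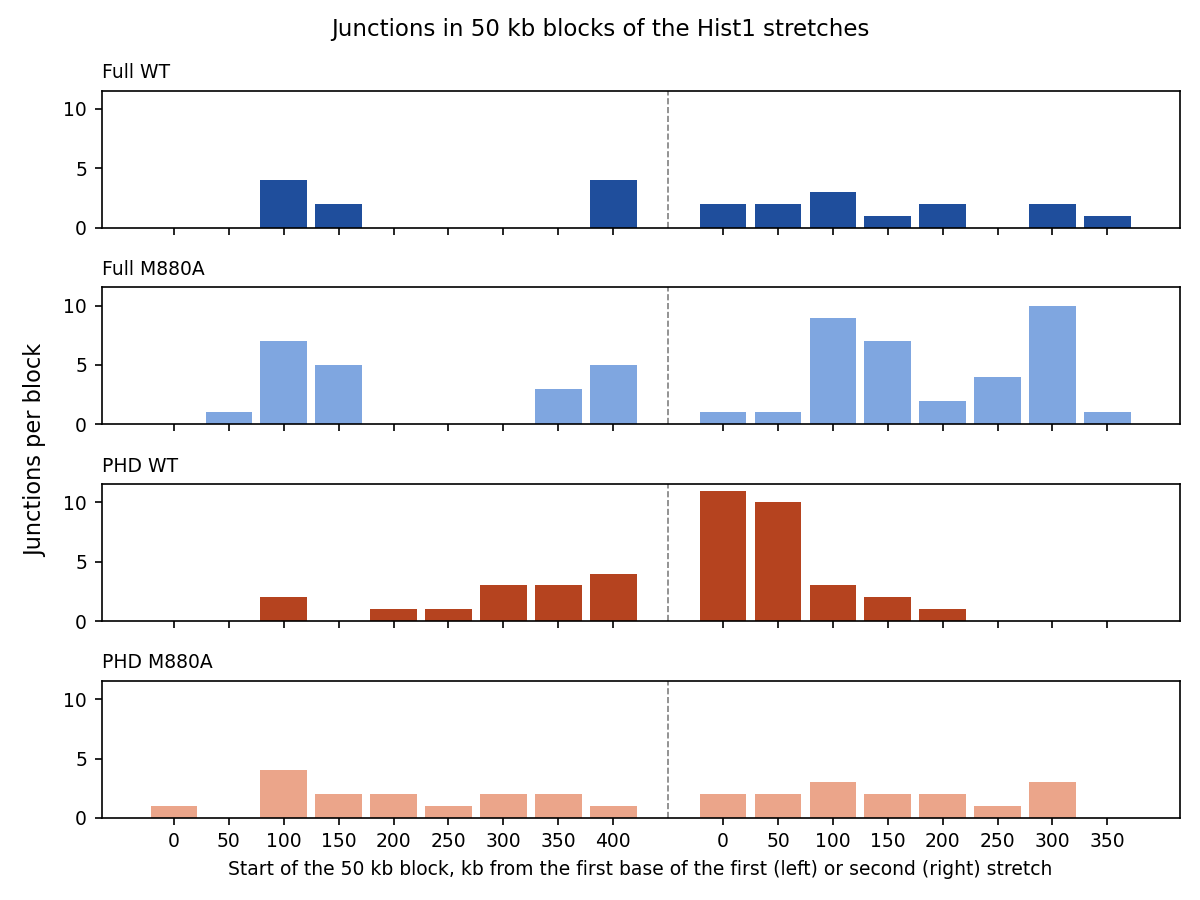
Bars are junctions per 50 kb block, 1 panel per library, by the block's start in kb from the first base of the first stretch (left of the dashed line) and of the second (right). PHD WT peaks at 11 and 10 in the opening blocks of the second stretch, and Full M880A peaks at 10 in the block that starts 300 kb into it.

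At finer scale, runs of junctions with gaps of at most 1 kb were formed over all 4 libraries. The Hist1 junctions fell into 80 runs, of which 50 were single junctions, 9 held at least 4, and none held 10, the size set for a description one by one. The largest held 9. Over the genome, 16.4% of all junctions lay in runs of at least 10, and the largest run held 103. In runs of at least 4 lay 32.7% of the Hist1 junctions and 28.9% of all. By library, the Hist1 share in runs of at least 4 was 34.8% in Full WT, 42.9% in Full M880A, 26.8% in PHD WT and 20.0% in PHD M880A, against 41.1%, 19.7%, 63.0% and 6.76% of the whole lists. Between the stretches, 28 of 29 runs were single junctions.

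The largest runs were picked after their sizes were seen. The run at chr13:23555620-23558394 held 9 junctions over 2775 bp. Of these, 7 were from PHD WT, at 23555620, 23556374, 23556466, 23557404, 23557420, 23557640 and 23558394, with 42, 2, 391, 2, 75, 316 and 64 reads. All but that at 23557640 were on the minus strand. The PHD M880A junction at 23556437 (294 reads, minus strand) was 29 bp from the PHD WT junction with 391 reads, and the Full WT junction at 23555867 (20 reads) was on the plus strand.

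The run at chr13:23664133-23665424 held 8 junctions over 1292 bp. Full M880A had 6 of them, at 23664447, 23664552, 23664572, 23664672, 23665003 and 23665216, with 2, 52, 25, 42, 62 and 4 reads. A Full WT junction (30 reads) stood at one end of the run and a PHD WT junction (267 reads) at the other. The run at chr13:23829735-23832353 held 7, of which 6 were from Full M880A with 62, 116, 2, 13, 13 and 3 reads, and 1 from Full WT with 24. The last 2 of the Full M880A junctions, at 23832035 and 23832036 on the plus strand, were adjacent bases. Both runs were thus mostly of Full M880A, with 1 Full WT junction in each.

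In the first stretch, the largest runs held 4 junctions. At chr13:21841513-21841745 there were 2 of Full WT (30 and 244 reads) and 2 of Full M880A (2 and 133 reads) within 233 bp. The Full M880A pair, at 21841743 and 21841745, was on 1 strand. At chr13:21869391-21871558 there were 2 of PHD M880A, 1 of Full M880A and 1 of Full WT. A pair of runs of 3 junctions was of PHD WT alone, at chr13:22008839-22009926 (3, 40 and 5 reads) and chr13:22086470-22087029 (12, 294 and 2 reads).

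Crowding was then compared at equal list length, as the share of junctions expected to keep a neighbour after every list is thinned to 22486. With neighbours of the same library within 1 kb, the share of Hist1 junctions was 26.1% in Full WT, 34.9% in Full M880A, 52.6% in PHD WT and 4.30% in PHD M880A. The whole lists gave 39.1%, 15.8%, 65.4% and 6.15%. In the Hist1 stretches the order of Full WT and Full M880A was therefore the reverse of that over their whole lists, but the Hist1 shares rest on 23 and 56 junctions with intervals of 10.2% to 48.4% and 22.6% to 48.8%, which overlap. For Full M880A the interval lies above the whole-list value of 15.8%, but no excess is read from this. The intervals were formed on the expected counts after thinning and treat junctions as independent, although neighbours score together. The Hist1 stretches were also 4.31 times as dense as the genome in Full M880A, and denser regions hold more neighbours. With positions within 10 bp merged, the Full M880A share was 30.1% (18.3% to 44.2%). Within 5 kb the Hist1 shares were 56.5%, 65.5%, 76.0% and 34.4%, against 51.0%, 27.8%, 72.5% and 16.3%.

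Proximity between libraries was measured the same way. Of the PHD WT junctions in the Hist1 stretches, 9 of 41 lay within 1 kb of a Full WT junction, 22.0%, against 54.4% of the whole PHD WT list. Near Full M880A lay 6 of them, 10.0% at equal list length, against 33.5%, and near PHD M880A 11, 17.3% against 16.5%. Of the Full M880A junctions, 21 of 56 lay near Full WT, 37.5% against 17.2%, 12 near PHD WT, 19.0% against 17.4%, and 6 near PHD M880A, 6.91% against 6.44%. Of the Full WT junctions, 13 of 23 lay near Full M880A, 39.9% against 24.9%, 5 near PHD WT, 20.6% against 40.1%, and 5 near PHD M880A, 14.0% against 11.3%. Of the 30 PHD M880A junctions, 4 lay near Full WT, 13.3% against 6.70%, 4 near Full M880A, 9.26% against 5.43%, and 5 near PHD WT, 15.8% against 6.68%. Between the wild-type PHD and wild-type Full libraries the cluster's shares were below those of the lists in both directions, and between the Full libraries they were above them. Of the remaining shares, only that of PHD WT junctions near Full M880A was below its list value. Denser regions hold more neighbours, so the list values are given as a description only. All values are shares of neighbouring junctions in single libraries, and no test was made of the differences.

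**Figure D5:**
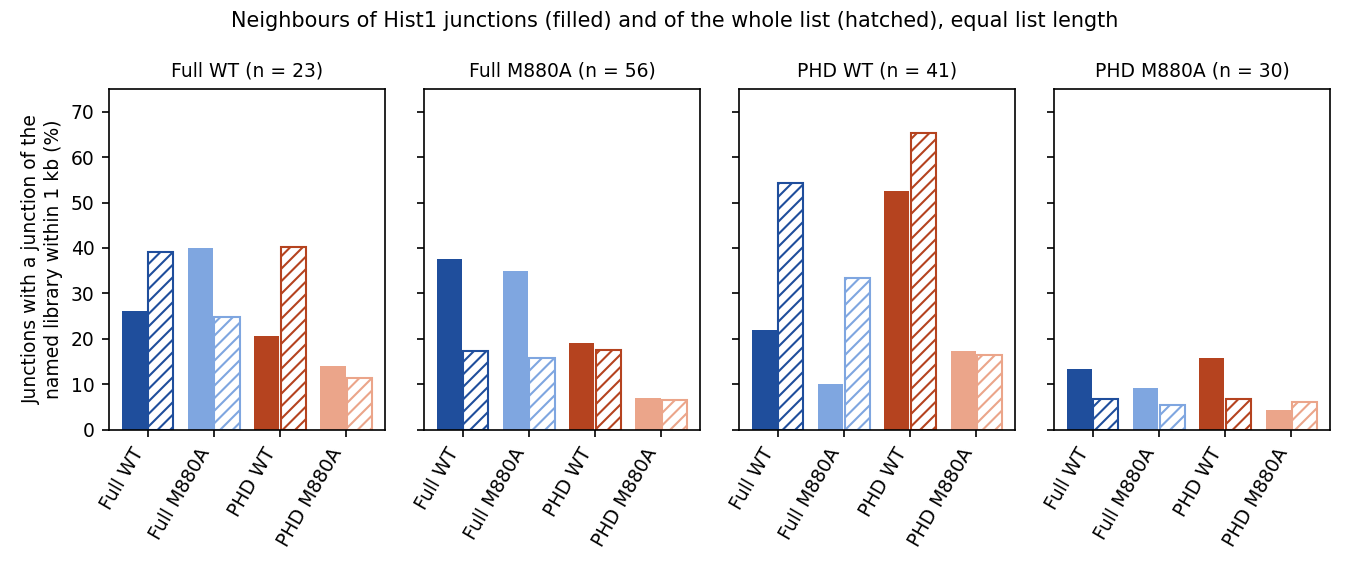
Bars are the percent of junctions of each library (1 panel each, with the number of Hist1 junctions) that have a junction of the library on the x axis within 1 kb, at equal list length, for the Hist1 stretches (filled) and the whole list (hatched). For PHD WT the filled bars near Full WT (22.0%) and Full M880A (10.0%) are lower than the hatched ones (54.4% and 33.5%).

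The junctions were divided between the strands as 13 plus of 23 in Full WT (56.5%, 34.5% to 76.8%), 31 of 56 in Full M880A (55.4%, 41.5% to 68.7%), 17 of 41 in PHD WT (41.5%, 26.3% to 57.9%) and 9 of 30 in PHD M880A (30%, 14.7% to 49.4%). The whole lists held between 49.9% and 50.3% on the plus strand. The PHD M880A interval is the only one of the 4 that lies below 50%. The same position and strand occurred in 2 libraries once, at 23541417 on the minus strand, with 3 reads in Full WT and 3 in PHD WT, libraries of different flow cells. No junctions of opposite strands lay within 10 bp of each other. The shares over the whole lists are not given for either count, so nothing is read from them. The median gap between neighbouring junctions of a library was 9.47 kb in Full WT, 2.91 kb in Full M880A, 2.75 kb in PHD WT and 20.8 kb in PHD M880A.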

How the data were processed

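The authors deposited 1 BED list of integration sites per library (4 lists), made from paired-end reads per the file headers. The submitters' processing notes name mm9 and MACS 1.4.2 without saying what each served for. Not given in the sources used here: aligner, read filters, and how reads became sites. The deposited score column is 0 throughout and was not used. The number after each read name was read as the site's read count, judging by the values alone, and is at least 2. Reads copied by PCR carry no molecular identifiers here and cannot count as separate molecules, so positions were counted.

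The junction was the first base of the listed interval on the plus strand and the last on the minus strand, 1-based. Identical positions were collapsed, which removed 354 lines in Full WT, 401 in Full M880A, 722 in PHD WT and 472 in PHD M880A. Depth was 2119983, 3651264, 2228958 and 2085037 reads in the same order. Density and share ratios have exact conditional binomial intervals, shares Clopper-Pearson intervals, and ratios of ratios for a pair of libraries conditional odds-ratio intervals, at 95%. The quotient of the PHD and Full ratios has an approximate interval instead, normal on the log scale with Poisson error of its counts. Shares after thinning have the Clopper-Pearson form applied to expected counts, which need not be whole numbers. Thinning used exact hypergeometric probabilities. The code was tested on simulated data. Windows named were the 10 fullest of the Hist1 stretches and the 3 fullest between, with ties taken in order of position. The regions, windows and thresholds were chosen with earlier results of these data known. An mm9 annotation was not used here, so no gene has a value. Alternatives were a minimum of 10 reads, merging within 10 bp, leaving out positions of other libraries, the other end as junction, other denominators, other windows and each stretch alone. Python 3.11.15, numpy 2.4.6, pandas 2.3.3 and scipy 1.17.1 were used.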

Additional observations from a re-analysis of the deposited data

Results flagged for a closer look

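The ratio of the WT to the M880A share of junctions in the Hist1 stretches differed between the fusions. It was 1.88 for the PHD domain and 0.718 for full-length TAF3, and their quotient was 2.62 (1.33 to 5.15, counting error only). In the second stretch alone the ratios were 2.48 and 0.649 and the quotient 3.81 (1.56 to 9.35), while in the first it was 1.54 (0.541 to 4.40). With at least 10 reads per junction the quotients were 2.22 (0.975 to 5.05) over both stretches and 4.76 (1.52 to 15.0) in the second. There is 1 library per group, and Full WT lay on a flow cell of its own, so flow cell and fusion cannot be told apart in this quotient.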

How the results depend on the processing

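Of 196 alternative values, 165 stayed within the interval of the reported value, or within 1.5 times a count, 31 moved, and no called ratio turned. The 165 include the ratios of Hist1-to-between ratios restricted to windows with a junction. Those could not move, because the lengths cancel between libraries. Restricting density to windows with a junction moved the Hist1-to-between ratio to 2.99, 2.43, 5.34 and 1.56 in Full WT, Full M880A, PHD WT and PHD M880A. By construction a single stretch lowers the share of junctions: the first held 0.0445%, 0.0534%, 0.0552% and 0.0430% of the lists and the second 0.0578%, 0.0891%, 0.106% and 0.0430%, against 0.102%, 0.143%, 0.162% and 0.0860% for both. Neighbours within 5 kb gave 56.5%, 65.5%, 76.0% and 34.4%. Windows past 2-fold, 2, 1, 2 and 2 for PHD WT over PHD M880A, Full WT over Full M880A, Full WT over PHD WT and Full M880A over PHD M880A, were 1, 0, 1 and 0 with at least 10 reads, and 0 in each pair with at least 10 junctions over the pair. Moving windows by 5 kb left 1 in each of the last 2 pairs, and windows of 5 kb left 1 in each of the 4 pairs. Full WT over Full M880A had 2 with the junction at the other end and 0 at 3-fold. By construction a stricter fold or a higher minimum over the pair cannot raise these counts, and a wider radius cannot lower the neighbour shares. The cause of the other moves was not tested. No paired analysis was possible because each group has 1 library. Depth limits the comparisons: with 4 junctions between the stretches in both WT libraries, the Hist1-to-between ratios reach 36.3 and 62.6 at the upper end.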
